A study of Bos taurus with 45 samples.

Results

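The genes described here encode the ISG15 conjugation pathway: ISG15 itself, UBA7, UBE2L6, HERC5, HERC6 and USP18. They were chosen by symbol from the known steps of the pathway, and each symbol matched 1 row in the endometrial count table (6 of 27270 genes) and 1 row in the conceptus count table (6 of 16149 genes). All 6 passed the filter on low counts in both tissues. ISG15 is a small protein built like a pair of joined ubiquitins, and type I interferons induce its gene. UBA7, the activating enzyme (E1), charges ISG15, UBE2L6, the conjugating enzyme (E2), takes it over, and a HECT-type ligase (E3) attaches it to lysines of target proteins; HERC5 does so in human cells and HERC6 in mouse cells. USP18 removes ISG15 from its targets and, in human and mouse cells, also binds the interferon receptor subunit IFNAR2 and damps signalling. In ruminants the elongating conceptus secretes interferon tau, the signal of maternal recognition of pregnancy, and ISG15 is a long-known marker of the response of the uterus to it.

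The study cultured Day 16 bovine tissue for 12 h, alone or together. Intercaruncular endometrial explants from cyclic Angus-Holstein heifers were cultured alone (Endo, 13 explants of 13 uteri) or under a section of conceptus (Endo-IVD Conc endometrium, 15 explants of 11 uteri with 9 conceptuses). Sections of conceptuses derived in vivo (IVD) by artificial insemination were cultured alone (IVD Conc, 8 sections of 8 conceptuses) or on an explant (Endo-IVD Conc conceptus, 9 sections of 7 conceptuses on 6 uteri). All 4 groups shared the medium, RPMI with dialyzed fetal bovine serum and an antibiotic-antimycotic, so mono-cultured tissue had also been explanted and cultured, and the cycling uterus had not met a conceptus before culture. Each uterus and each conceptus is called by its heifer number, and uteri and conceptuses linked by shared co-cultures form a culture set of at most 2 uteri and 2 conceptuses. Uteri 15 and 17 had no co-culture among these libraries and were treated as a further set, which no shared co-culture here defines. A whole explant or section was sequenced, so a gene active in more cells and a gene more active per cell cannot be told apart. Libraries held 44.2 to 64.0 M counted reads in endometrium and 58.6 to 104.4 M in conceptus tissue. Explants carried markers of epithelium, stroma, endothelium and leukocytes, and 4 defining trophoblast genes (TKDP1, PAG2, CDX2 and IFNT3) stayed at or below 0.158 CPM (read counts scaled to a common library total) in every explant, co-cultured ones included. All 10 measured genes of the trophoblast list summed to 199.6 to 900.5 CPM in Endo and 171.8 to 530.7 CPM in co-culture, with the highest medians for PTGS2 (219.6 and 112.9 CPM) and GATA2 (108.3 and 108.1 CPM), and none of the 5 tested passed. Conceptus libraries carried trophoblast markers in very unequal amounts, from 481 to 44150 CPM summed over 12 genes, and their 5 measured leukocyte markers summed to 2.05 to 25.3 CPM. The 2 tissues were aligned with different programs, so levels were not compared between them, only changes.

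In endometrium all 6 genes of the pathway were more abundant in co-culture with conceptus tissue. Every co-cultured explant exceeded every mono-cultured explant for each of them, and in all 11 uteri with both cultures the co-cultured tissue held more. Over all 16443 genes tested, edgeR's quasi-likelihood test called 4.98% higher and 2.15% lower in co-culture, 1.23% had no overlap between the groups in either direction, and 3.49% were higher in all 11 uteri. The size of the change was graded, from 149.7-fold in mean CPM for the modifier ISG15 to 6.22-fold for the E2 enzyme UBE2L6.

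**Figure D1:**
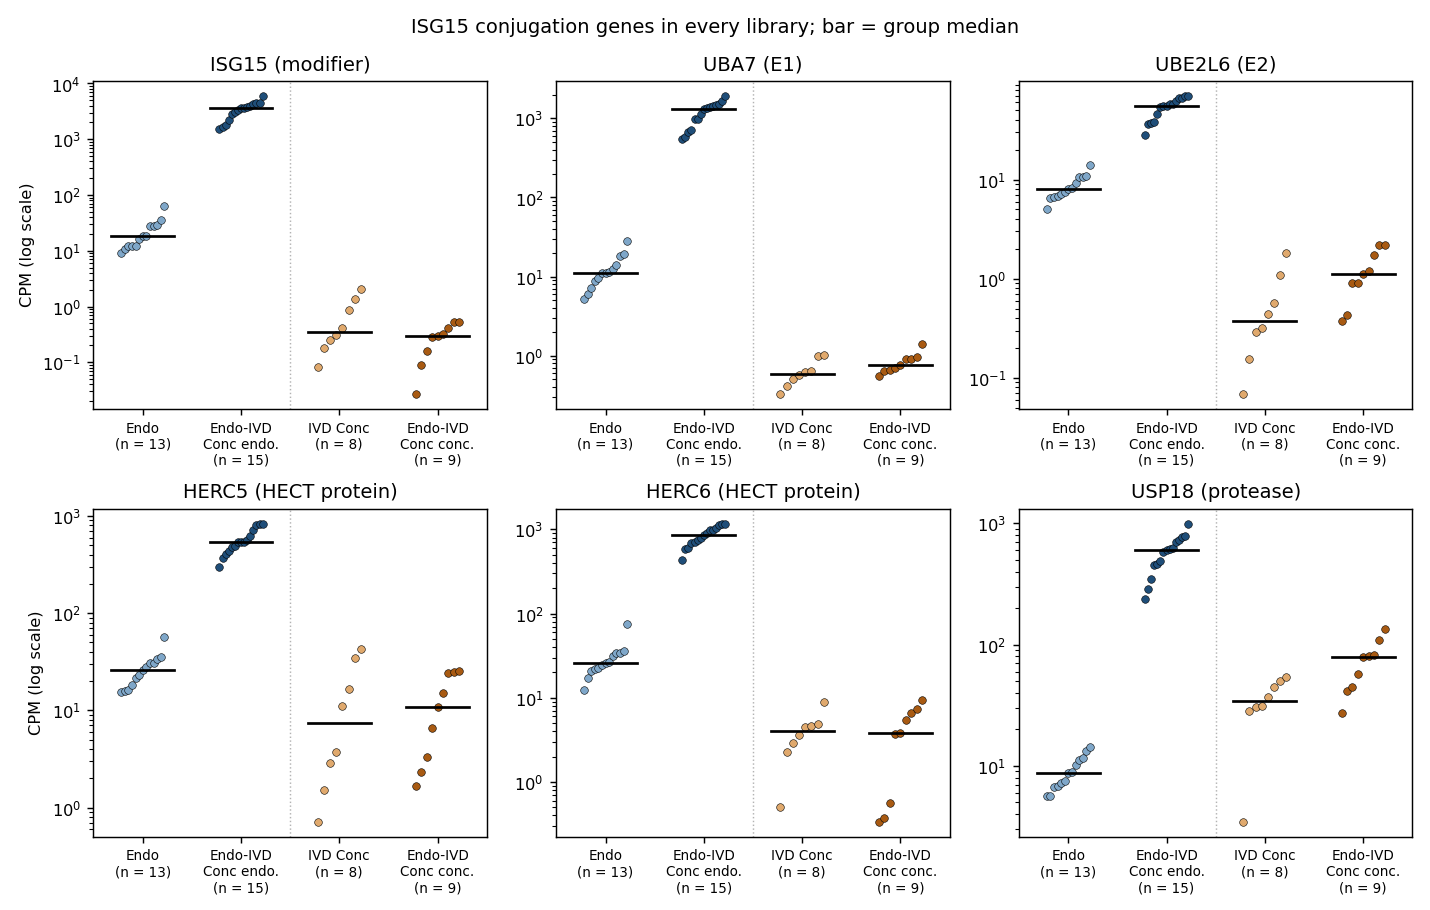
CPM (log scale) of the 6 pathway genes in each of 45 libraries, with a bar at the group median; the dotted line separates tissues that were aligned differently. In endometrium the 15 co-cultured explants lie above all 13 mono-cultured ones for every gene, whereas the 9 co-cultured and 8 mono-cultured conceptus sections overlap for every gene.

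ISG15 (ENSBTAG00000014707) ranged from 9.23 to 64.2 CPM in Endo explants, with a median of 18.1, and from 1512 to 5981 CPM in Endo-IVD Conc endometrium, with a median of 3695. The lowest co-cultured explant thus held 23.5 times the highest mono-cultured one. The highest mono-cultured value came from uterus 14, and the next, 35.7 CPM, from uterus 15. The log2 fold change (LogFC) was 7.23 with an SE of 0.35 (edgeR adjusted p = 2.28e-16), the fourth largest of all genes tested.

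UBA7 (ENSBTAG00000012335), the E1 enzyme that commits ISG15 to conjugation, ranged from 5.21 to 28.4 CPM (median 11.2) in Endo and from 555.9 to 1923 CPM (median 1298) in Endo-IVD Conc endometrium. Its LogFC of 6.56 ± 0.29 (SE, edgeR adjusted p = 4.88e-17) had rank 10 among all genes. UBE2L6 (ENSBTAG00000012989), the E2 enzyme that receives ISG15 from UBA7, ranged from 5.07 to 14.0 CPM (median 8.00) in Endo and from 28.4 to 69.7 CPM (median 54.8) in co-culture. The LogFC of UBE2L6 was 2.64 ± 0.16 (SE, edgeR adjusted p = 3.82e-14), and its groups were separated by a factor of 2.03 between the highest mono-cultured and the lowest co-cultured explant.

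HERC5 and HERC6 lie next to each other on chromosome 6 in the RefSeq annotation. They are paralogs, so some reads may be shared between them, which was not tested. HERC5 (ENSBTAG00000020538) ranged from 15.5 to 56.6 CPM (median 26.2) in Endo and from 297.1 to 835.3 CPM (median 534.5) in co-culture, with a LogFC of 4.38 (SE 0.21, edgeR adjusted p = 3.08e-16). HERC6 (ENSBTAG00000020536) ranged from 12.3 to 75.4 CPM (median 25.8) in Endo and from 429.1 to 1170 CPM (median 858.8) in co-culture, with a LogFC of 4.85 (SE 0.23, edgeR adjusted p = 2.54e-16). Mean CPM was 20.9-fold higher for HERC5 and 28.9-fold higher for HERC6, and the highest mono-cultured explant was that of uterus 17 for HERC5 and of uterus 14 for HERC6.

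USP18 (ENSBTAG00000016661), the protease that opposes conjugation, was higher in co-culture along with the conjugating genes. It ranged from 5.64 to 14.4 CPM (median 8.69) in Endo and from 239.1 to 994 CPM (median 602.6) in Endo-IVD Conc endometrium, with a LogFC of 6.00 (SE 0.23, edgeR adjusted p = 3.83e-18). Each of the 6 genes was also called in all 15 alternative fits, among them those with uterus or culture set as block. Of the marker lists, 3 of 7 smooth muscle genes and 1 of 4 hypoblast genes were also higher and 2 of 6 endothelial genes lower in co-culture, with summed smooth muscle markers of 260 to 1696 CPM in Endo and 458 to 9065 CPM in co-culture. All 6 pathway genes still rose when uteri 38 and 69, with 3476 to 9065 CPM of these markers in co-culture, were left out.

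The order of the changes was similar across uteri. Within a uterus the log2 difference between co- and mono-cultured tissue averaged 7.32 ± 0.64 (SD, n = 11) for ISG15, 6.47 ± 0.75 for UBA7, 5.90 ± 0.51 for USP18, 4.88 ± 0.45 for HERC6, 4.37 ± 0.40 for HERC5 and 2.56 ± 0.70 for UBE2L6. ISG15 changed more than UBA7 in 11 of 11 uteri, and HERC5 more than UBE2L6 in 11 of 11. The neighbouring steps UBA7 over USP18, USP18 over HERC6 and HERC6 over HERC5 each held in 10 of 11 uteri. The whole order, which was taken from the means of these same uteri, held in 8 of 11. Uterus 14, with the highest mono-cultured ISG15, showed the smallest ISG15 change, 5.98, and uterus 53 the smallest UBE2L6 change, 1.02.

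**Figure D2:**
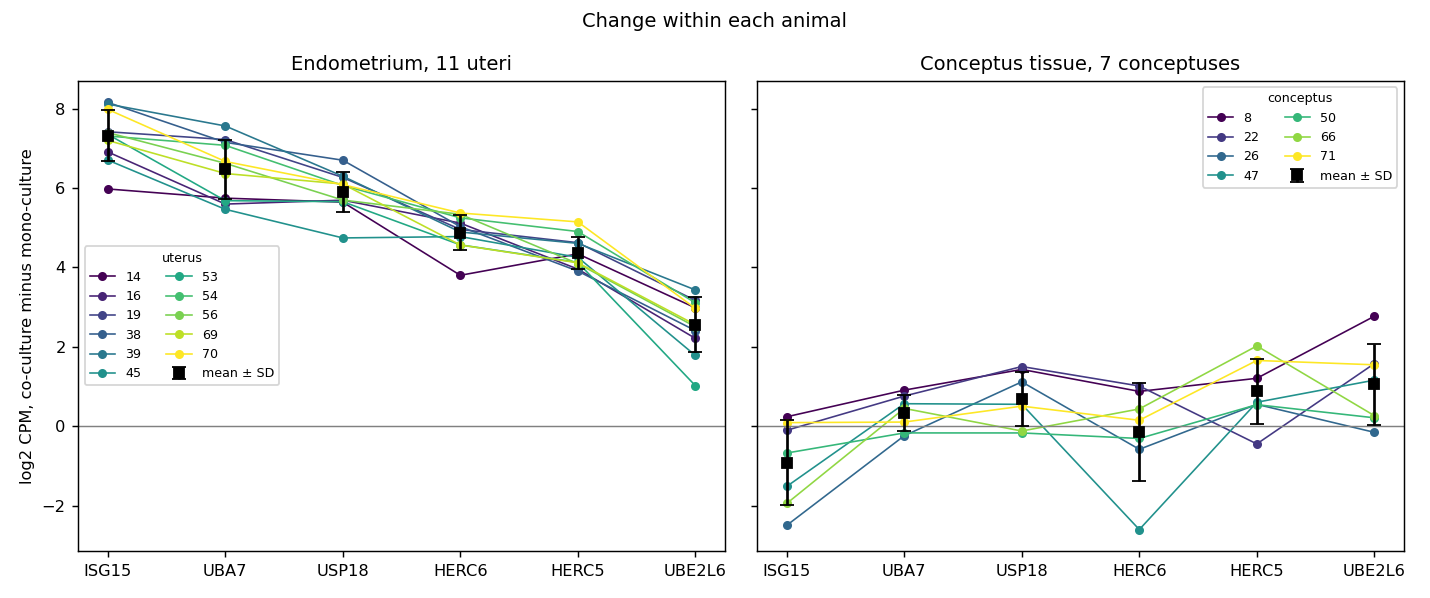
Log2 CPM in co-culture minus mono-culture within each of 11 uteri (left) and 7 conceptuses (right), one line per animal, with squares and bars for the mean ± SD. Endometrial lines fall in nearly the same order from ISG15 to UBE2L6 and stay above 0, whereas lines of conceptus tissue lie on both sides of 0 for every gene.

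Co-cultured explants also differed among themselves, and the 4 lowest values came from 2 culture sets for every gene but HERC6. HERC6 was 692.1 CPM in uterus 38 under conceptus 50, below 699.1 CPM in uterus 56 under conceptus 5. The 4 lowest ISG15 values were 1512 and 1686 CPM in uteri 53 and 45 under conceptus 10 and 1823 and 2183 CPM in uteri 56 and 16 under conceptus 5. USP18 was lowest in the same 4 explants, from 239.1 to 451.5 CPM, and UBE2L6 lay between 28.4 and 37.97 CPM in them against 45.9 to 69.7 CPM elsewhere. The explant of uterus 19 under conceptus 47 held the most ISG15 (5981 CPM), UBA7 (1923 CPM), HERC6 (1170 CPM) and USP18 (994 CPM). The section of conceptus 5 cultured alone held 481 CPM of summed trophoblast markers, the least of all, but the explant under conceptus 50, whose section in that co-culture held 2263 CPM, had 3695 CPM of ISG15, the group median. No section of conceptus 10 was analysed here, and the relation was not tested.

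Sister explants of 1 uterus under different conceptuses gave a closer view. Explants of uteri 14 and 39 both held more of all 6 genes under conceptus 8 than under conceptus 26. ISG15 was 4409 against 3708 CPM in uterus 14 and 4022 against 2811 CPM in uterus 39. In uterus 19, 5 of 6 genes were higher under conceptus 47 than under conceptus 22 (ISG15 5981 against 3765 CPM), with UBE2L6 the exception at 66.0 against 69.1 CPM. In uterus 38, 3 of 6 genes were higher under conceptus 50 and the rest under conceptus 66. For ISG15 the median log2 difference between explants was 0.38 over 4 pairs that shared a uterus, 0.33 over 6 pairs that shared a conceptus, 0.25 over 3 pairs that shared only the culture set, and 0.66 over 92 pairs from different culture sets. Each value came from 1 explant, and the 6 genes varied together in this group, so the counts of genes are not separate observations. These pairs reuse explants, and no test was made of them.

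In conceptus tissue none of the 6 genes passed the test. Over all 14746 genes tested, edgeR called 3.59% higher and 3.65% lower in co-culture, and 0 of 6 is close to this background. At an unadjusted p under 0.05, 1 of 6 passed, USP18, beside 3744 of all 14746 genes. For each of the 6 genes the groups overlapped, as they did for all but 1.17% of genes. ISG15 ranged from 0.083 to 2.06 CPM (median 0.355) in IVD Conc and from 0.027 to 0.532 CPM (median 0.299) in Endo-IVD Conc conceptus, and the LogFC was -1.24 (95% interval -2.53 to 0.05, edgeR adjusted p = 0.215). It rested on 2 to 150 reads per library. A decrease of that size and almost no change were thus both inside the interval, but a rise like that of endometrium was not.

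USP18 rested on 303 to 7196 reads per library in conceptus tissue. It ranged from 3.47 to 53.8 CPM (median 34.2) in IVD Conc and from 27.3 to 134.6 CPM (median 79.7) in Endo-IVD Conc conceptus. Its LogFC was 1.06 (SE 0.39, 95% interval 0.23 to 1.89, adjusted p = 0.103, edgeR), and 5 of 7 conceptuses held more in co-culture. Of all genes, 8.3% were higher in co-culture in all 7 conceptuses, and none of the 6 was. The largest differences were in conceptus 22, from 28.5 to 80.7 CPM, and conceptus 8, from 49.9 to 134.6 CPM, while conceptus 50 (30.7 and 27.3 CPM) and conceptus 66 (44.7 and 41.1 CPM) gave nearly equal values. This gene passed in 2 of 12 alternatives: DESeq2 gave an adjusted p of 0.0476 and a fit with 2 factors of unwanted variation 0.0143. The conceptus as a block gave a LogFC of 0.71 (SE 0.22, edgeR adjusted p = 0.0751). Without culture set 4, whose only conceptus is 5, the change was 0.88 (adjusted p = 0.0828, edgeR). That was the smallest adjusted p when culture sets were left out in turn, and the largest was 0.414 (edgeR), with LogFCs from 0.88 to 1.30.

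UBA7 and UBE2L6, the E1 and E2 enzymes, were read at low depth in conceptus tissue, 34 to 92 and 6 to 173 reads per library. UBA7 ranged from 0.327 to 1.02 CPM alone and from 0.545 to 1.40 CPM in co-culture, a LogFC of 0.39 (95% interval -0.18 to 0.96, adjusted p = 0.391, edgeR). UBE2L6 ranged from 0.069 to 1.81 CPM alone and from 0.372 to 2.20 CPM in co-culture, a LogFC of 1.05 (95% interval -0.11 to 2.21, adjusted p = 0.244, edgeR). UBE2L6 was higher in co-culture in 6 of 7 conceptuses and passed the test in 1 of 12 alternatives, that with 2 factors of unwanted variation (adjusted p = 0.0332, edgeR).

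The 2 HERC genes varied widely between conceptuses. HERC5 spanned a factor of 59.3 among mono-cultured sections, from 0.715 CPM in conceptus 71 to 42.4 CPM in conceptus 5, and ranged from 1.65 to 25.6 CPM in co-culture. HERC6 ranged from 0.5002 CPM in conceptus 71 to 8.89 CPM in conceptus 26 alone, and from 0.336 to 9.33 CPM in co-culture. The LogFCs were -0.16 (95% interval -1.74 to 1.42, adjusted p = 0.925, edgeR) for HERC5 and 0.05 (95% interval -1.27 to 1.36, adjusted p = 0.976, edgeR) for HERC6. With the conceptus as a block the sign of HERC5 turned to 0.88 (SE 0.29, edgeR adjusted p = 0.0831), and 6 of 7 conceptuses held more HERC5 in co-culture; conceptus 5, the highest, was sequenced only in mono-culture. In conceptus 47 HERC6 was at 2.28 CPM alone and at 0.336 and 0.373 CPM in its 2 co-cultures, and HERC5 at 1.53 CPM alone and 1.65 and 3.30 CPM in co-culture.

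**Figure D3:**
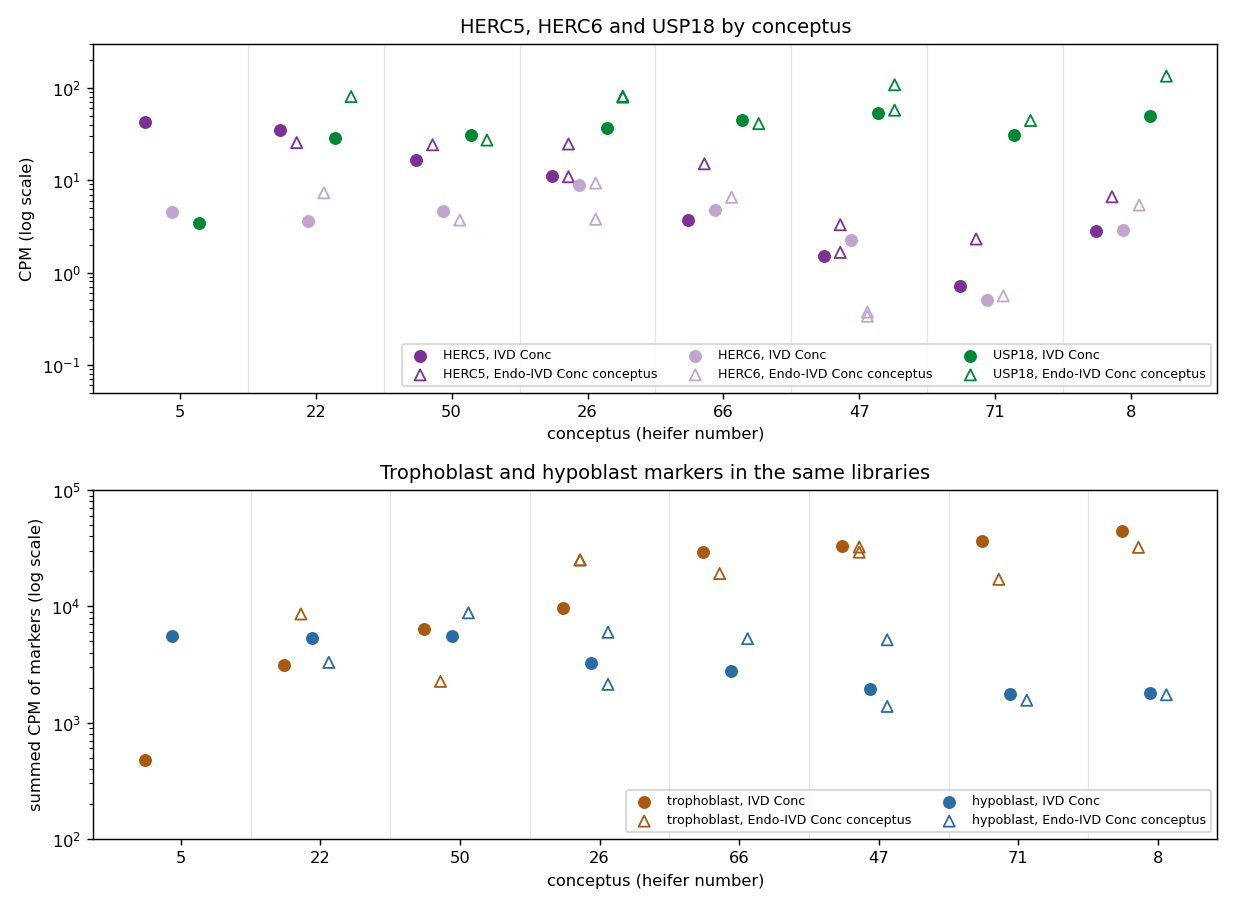
HERC5, HERC6 and USP18 in CPM (top, log scale) and the summed CPM of 12 trophoblast and 4 measured hypoblast markers (bottom, log scale), by conceptus; filled circles are sections cultured alone and open triangles sections from co-culture, and conceptuses are ordered by trophoblast markers in mono-culture. HERC5 is highest and USP18 lowest in conceptus 5, where trophoblast markers sum to 481 CPM.

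In mono-culture, HERC5 differed between conceptuses beside the make-up of the sections. Conceptuses 5, 22 and 50, with the 3 highest HERC5 values in mono-culture (42.4, 34.9 and 16.6 CPM), held the 3 lowest sums of trophoblast markers (481, 3134 and 6381 CPM) and the 3 highest sums of hypoblast markers (5536, 5397 and 5596 CPM). Conceptuses 8, 47, 66 and 71 held 0.715 to 3.69 CPM of HERC5, 29170 to 44150 CPM of trophoblast markers and 1778 to 2762 CPM of hypoblast markers. Smooth muscle markers followed the same division, with 365 to 972 CPM in the former and 29.2 to 109.8 CPM in the latter. USP18 was lowest, 3.47 CPM, in conceptus 5. Embryonic disc markers summed to 38.03 to 193.9 CPM and leukocyte markers to at most 25.3 CPM in mono-culture. Between the cultures, 2 of 3 measured erythroid markers were higher in co-culture, with sums of 1.43 to 9.28 CPM alone and 1.69 to 73.9 CPM in co-culture, and no marker of the other lists passed. In co-culture the division by trophoblast and hypoblast markers did not hold throughout. HERC5 was 24.7 CPM in conceptus 26 on uterus 39, where trophoblast markers summed to 25140 CPM and hypoblast markers to 5986 CPM. It was 10.9 CPM in the same conceptus on uterus 14, with 25140 and 2134 CPM. It was 3.30 CPM in conceptus 47 on uterus 54, with 32430 and 5161 CPM, and 2.31 CPM in conceptus 71, with 17110 and 1558 CPM. In the same order, stroma markers summed to 123.7, 36.1, 30.1 and 15.7 CPM in these sections. Other sections broke that order. Conceptus 8 in co-culture held 6.62 CPM of HERC5 with 47.5 CPM of stroma markers. In mono-culture, conceptus 26 held 11.2 CPM of HERC5 with 240.3 CPM, and conceptus 50 held 16.6 CPM with 59.9 CPM. The part of section make-up in the levels of HERC5 and USP18 was not tested.

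The response to co-culture differed between the tissues for all 6 genes. In a model over both tissues and 15604 shared genes, the endometrial LogFC exceeded that of conceptus tissue by 8.46 for ISG15 (SE 0.64, edgeR adjusted p = 8.26e-14). The excess was 6.16 for UBA7 (SE 0.38), 4.94 for USP18 (SE 0.41), 4.81 for HERC6 (SE 0.58) and 4.55 for HERC5 (SE 0.67), the largest adjusted p among them being 4.13e-06 (edgeR). Of all shared genes, 6.97% were called with a larger response in endometrium and 8.33% with a larger response in conceptus tissue. UBE2L6 had the smallest excess, 1.59 (SE 0.45, edgeR adjusted p = 0.0132), and its call was lost without culture set 2 (adjusted p = 0.0960), 3 (0.0773) or 6 (0.0731).

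Within a culture group, covariation among the 6 genes was strong in co-cultured endometrium and partial elsewhere. It was measured as Pearson's r and Spearman's rho of log2 CPM over animals, with 15 pairs of genes in each of 4 groups, permutation tests and Benjamini-Hochberg adjustment over the 60 relations. In Endo-IVD Conc endometrium, 14 of 15 pairs passed by r and 15 of 15 by rho over 11 uteri, and r ranged from 0.66 to 0.98 with a median of 0.86. ISG15 and UBA7 reached r = 0.98 (permutation p = 1e-05, the smallest possible, adjusted p = 0.0002) and rho = 0.95 (permutation p = 4e-05, adjusted p = 0.0008), and r was 0.97 without the 2 farthest uteri. ISG15 and USP18, the modifier and its protease, reached r = 0.97 (permutation p = 1e-05, adjusted p = 0.0002) and rho = 0.99 (permutation p = 1e-05, adjusted p = 0.0006), and r was 0.97 without the 2 farthest. The pair that missed by r was HERC6 and USP18 (r = 0.66, permutation p = 0.0273, adjusted p = 0.0746). All 5 other members had r of at least 0.7 with ISG15, as did 7.56% of all genes.

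**Figure D4:**
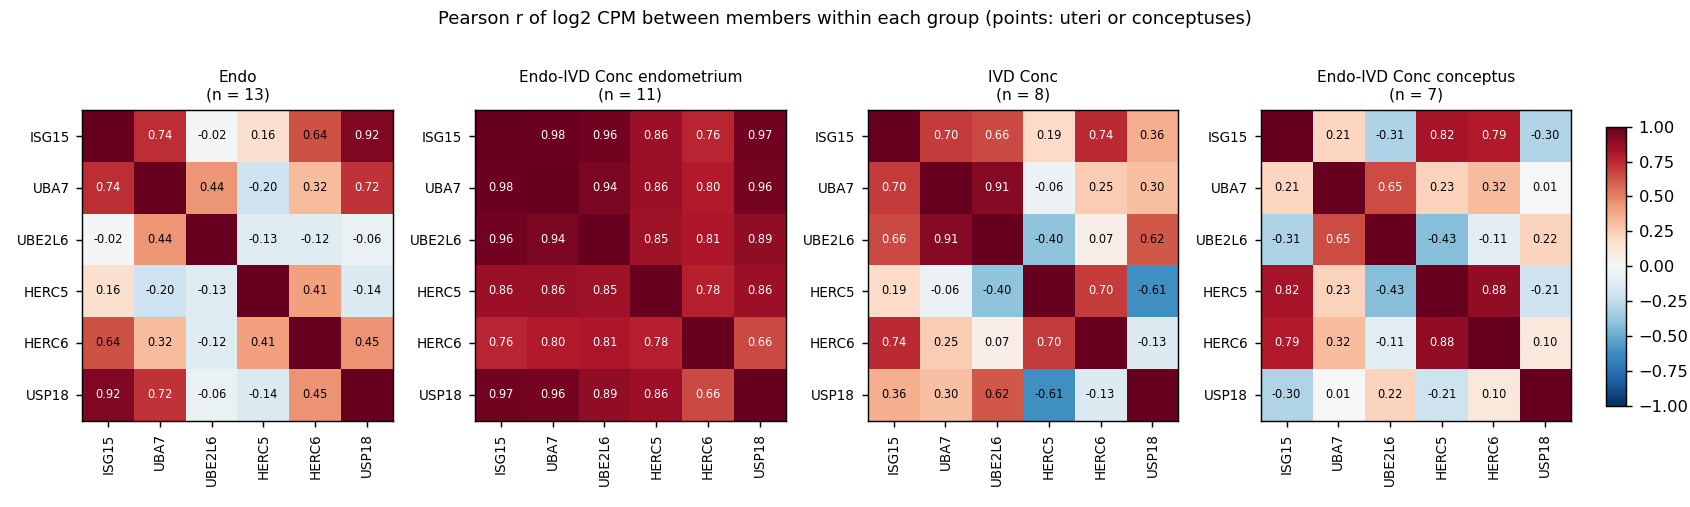
Pearson's r of log2 CPM between each pair of pathway genes within the 4 groups, over 13 uteri, 11 uteri, 8 conceptuses and 7 conceptuses from left to right; red is positive and blue negative. All 15 pairs are positive in Endo-IVD Conc endometrium, and signs are mixed in the other groups.

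Uteri of the same culture set were then set against each other. In the 5 sets that held 2 co-cultured uteri, the uterus with more of 1 gene also had more of the other in 50 of 75 comparisons (15 pairs of genes in 5 sets). The 15 pairs of a set come from 6 differences, so they are not independent and some match whatever the values. All 6 genes were higher in uterus 19 than 54 and in uterus 14 than 39. For uteri 45 and 53, 16 and 56, and 69 and 70 the signs were mixed. ISG15 and UBE2L6 ordered the 2 uteri alike in 5 of 5 sets, and HERC6 and USP18 in 2 of 5. Over the means of 6 sets, an alternative chosen after seeing the data, 11 of 15 pairs passed by r. Uteri of a set also shared the conceptuses, so set, conceptus and uterus cannot be told apart here. The permutations treated uteri as independent, so their p-values do not allow for this sharing.

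In endometrium cultured alone 3 of 15 pairs passed over 13 uteri, all among ISG15, USP18 and UBA7. ISG15 and USP18 had r = 0.92 (permutation p = 3e-05, adjusted p = 0.00036) and rho = 0.88 (permutation p = 0.00014, adjusted p = 0.00168), and r was 0.92 without the 2 farthest uteri. UBA7 had r = 0.72 with USP18 (permutation p = 0.00573, adjusted p = 0.0202; rho = 0.67, permutation p = 0.015, adjusted p = 0.0501), and 0.68 without the 2 farthest. UBA7 had r = 0.74 with ISG15 (permutation p = 0.00384, adjusted p = 0.0159; rho = 0.62, permutation p = 0.0276, adjusted p = 0.0873), which rested on the 2 farthest uteri since r was 0.45 without them. UBE2L6 and HERC5 had r of -0.02 and 0.16 with ISG15 and did not pass. Over the means of 7 culture sets, with uteri 15 and 17 taken as a set, 1 of 15 pairs passed. Of all genes, 0.268% had r of at least 0.7 with ISG15 in these uteri, against 2 of its 5 partners.

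In conceptus tissue 1 pair passed. UBA7 and UBE2L6, the E1 and E2 enzymes, had r = 0.91 over 8 mono-cultured conceptuses (exact permutation p = 0.00397, adjusted p = 0.0159) and rho = 0.90 (exact permutation p = 0.00456, adjusted p = 0.0211), and r was 0.89 without the 2 farthest. Both genes had few reads there, so counting error enters each point. HERC5 and USP18 ran opposite ways without passing, with r = -0.61 (exact permutation p = 0.0635, adjusted p = 0.141) and rho = -0.76 (exact permutation p = 0.0368, adjusted p = 0.105). Their r was -0.99 without the 2 farthest, so its size depended on few conceptuses. In Endo-IVD Conc conceptus no pair passed over 7 conceptuses, at an unadjusted p of 0.05 2 did, and the strongest, HERC5 and HERC6 (r = 0.88, exact permutation p = 0.0216, adjusted p = 0.0649), fell to -0.03 without the 2 farthest. In 3 culture sets with 2 conceptuses, the difference between the 2 had the same sign for UBA7 and UBE2L6 in 2 of 3 sets in mono-culture and 1 of 3 in co-culture. Over all 15 pairs of genes the signs matched in 26 of 45 cases in mono-culture and 23 of 45 in co-culture. The pairs of a set again come from 6 differences and are not independent.

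The genes whose pattern was most like each member were then sought, as the highest Pearson's r of log2 CPM once group means were removed, a description over 28 endometrial or 17 conceptus libraries that share animals and culture sets. In endometrium the nearest to ISG15 were OAS1Y (0.82) and OAS1Z (0.82), oligoadenylate synthetases that sense double-stranded RNA, and DTX3L (0.81), a ubiquitin ligase. UBA7 was nearest to SP110 (0.82), a nuclear body protein, PARP12 (0.81) and ZBP1 (0.79), a nucleic acid sensor. HERC6 was nearest to IFI44 (0.81), PARP9 (0.78), the partner of DTX3L, and IFI44L (0.78). USP18 was nearest to CUL4B (0.84), a cullin scaffold, ZBP1 (0.83) and SERINC3 (0.83). HERC5 was nearest to TDRD7 (0.80), ZDHHC17 (0.79), a palmitoyltransferase, and STAT2 (0.77), the interferon signal transducer. UBE2L6 was nearest to RBCK1 (0.77), a subunit of the linear ubiquitin ligase, TMEM268 (0.77) and SERPING1 (0.76), the C1 inhibitor, which is its neighbour on chromosome 15 in RefSeq. Among the members themselves, the same measure was 0.91 for ISG15 and USP18 but 0.40 for ISG15 and UBE2L6.

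The nearest genes in conceptus tissue were ranked in the same way. HERC5 followed CD59 (0.99), a complement inhibitor, RILPL1 (0.98) and DBN1 (0.98), an actin-binding protein. HERC6 followed GPRC5A (0.95) and CD109 (0.95). USP18 followed PITPNC1 (0.93), a lipid transfer protein, COBL (0.93), an actin nucleator, and SDC1 (0.93), the proteoglycan syndecan-1. ISG15 followed SPACDR (0.84), WNT16 (0.83), a Wnt ligand, and MX1 (0.80), an interferon-induced antiviral GTPase. UBA7 followed SHROOM4 (0.87), PPP1R26 (0.77) and SUFU (0.77), a hedgehog pathway inhibitor. UBE2L6 followed IL1RAP (0.85), an interleukin receptor subunit, BAHCC1 (0.85) and HR (0.85). HERC5 and HERC6 had 0.76 between them, and HERC5 and USP18 -0.46.

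Genes of related conjugation systems were counted beside the background in endometrium, 4.98% higher and 2.15% lower. Of 9 E1 enzymes for ubiquitin and other modifiers 0 rose and 0 fell, with LogFCs from -0.20 to 0.21, and UBA1, the ubiquitin E1, was at -0.11. Of 16 rows of E2 enzymes, 0 rose and 1 fell, UFC1 (-0.39), which conjugates UFM1; UBE2L3, the closest paralog of UBE2L6, was at 0.02. Of 16 genes for ubiquitin and other modifiers, 0 rose and 3 fell, SUMO2 (-0.35), UBL5 (-0.34) and GABARAP (-0.32), an autophagy modifier. Of the 4 other HERC genes none passed, with changes from -0.21 to 0.24. The median LogFC was 5.43 over the 6 pathway genes, -0.11 over the E1 enzymes, -0.07 over the E2 enzymes and -0.17 over the modifiers, beside -0.04 over all genes tested.

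**Figure D5:**
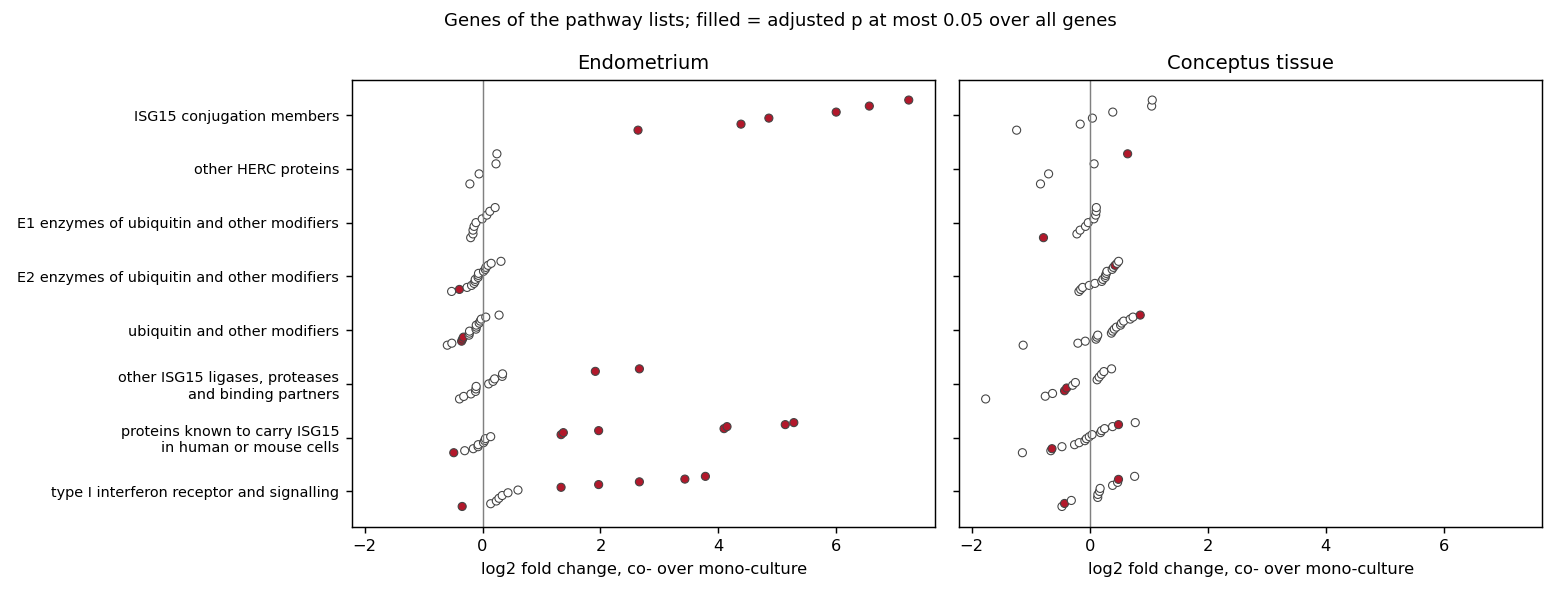
Log2 fold change of co- over mono-culture for the genes of 8 lists in endometrium (left) and conceptus tissue (right), each point a gene, filled where the adjusted p over all genes was at most 0.05. In endometrium the 6 pathway genes lie from 2.64 to 7.23, while E1 enzymes, E2 enzymes, modifiers and other HERC genes stay within 0.60 of 0.

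Among 13 other ligases, proteases and binding partners of ISG15, 2 rose in endometrium, beside 4.98% of all genes. STAT2, which helps USP18 reach the receptor, averaged 43.7 ± 8.75 CPM in Endo and 276.3 ± 94.3 CPM in co-culture (SD over 13 and 15 explants), with a LogFC of 2.66 ± 0.17 (SE, edgeR adjusted p = 1.97e-13). TRIM25, a ubiquitin ligase that can also attach ISG15, rose by 1.91 (SE 0.18). USP5, USP14, ARIH1, the ligase reported to attach ISG15 to some human proteins, and IFNAR2, the receptor subunit that USP18 binds, did not pass, with LogFCs of -0.32, 0.18, 0.21 and 0.33.

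Of 16 genes for proteins known to carry ISG15 in human or mouse cells, 7 rose in endometrium. The risers were led by MX1 (5.28), the RNA sensors DDX58 (5.13) and IFIH1 (4.15) and the RNA-dependent kinase EIF2AK2 (4.09). Of 12 genes of the type I interferon receptor and its signalling, 5 rose, led by IRF9 (3.78), the DNA-binding partner of STAT2, and IRF7 (3.43), and TYK2, a receptor kinase, fell by 0.35. The lists share genes, IRF3 and STAT2 among them, and several of their genes are themselves induced by interferon. Their medians were 0.09 and 0.52, so the calls came from a part of each list.

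In conceptus tissue the same lists held the calls below, beside 3.59% higher and 3.65% lower over all genes. USP5 (-0.39), which recycles ubiquitin chains and can bind ISG15, and STAT2 (-0.43) fell among 12 partners tested. HERC4 rose by 0.64 among the other HERC genes. MOCS3 fell by 0.78 among E1 enzymes, UBE2R2 rose by 0.43 among E2 enzymes, and MAP1LC3B, an autophagy modifier, rose by 0.86 among modifiers. IRF3 rose by 0.49 among the ISG15 targets, and IRF3 and STAT2 were the genes called among 11 of interferon signalling. These calls rest on few conceptuses. Over all genes, the calls in conceptus tissue went from 530 higher and 538 lower to 34 and 37 without culture set 2, and to 0 by edgeR without culture set 3, where 2278 genes had an unadjusted p under 0.05.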

How the data were processed

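RNA-seq of endometrial explants (28 libraries) and conceptus sections (17 libraries) was analysed. Libraries with conceptuses produced in vitro were not analysed here. The authors trimmed reads with Trimmomatic, aligned endometrial reads with STAR and conceptus reads with HISAT2 to ARS-UCD1.2, and deposited raw counts per gene from featureCounts; neither tool versions nor whether counting used strand is given in the sources used here. A blank row was dropped (1 in the endometrial table).

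Counts were tested within each tissue by edgeR 4.0.16 (R 4.3.3), with TMM normalization, filterByExpr at a minimum count of 10, a quasi-likelihood test and Benjamini-Hochberg adjustment over all genes at 0.05. The tissue difference was an interaction term over shared genes. CPM used TMM library sizes, correlations log2 CPM with a prior count of 2 and 100000 resamples (exact below 10 points, scipy 1.17.1). DESeq2 1.42.0, size factors of DESeq2, no filter, blocks, 2 factors of unwanted variation from residuals and leaving out each culture set were alternatives. The edgeR fit without blocks was also run on simulated counts of independent libraries, with no effect of animal or culture set. That run could not test how shared animals bear on the calls. The study's methods used DESeq2 with RUVSeq, whose settings are not given, so edgeR was the main test. Libraries of 1 animal entered as separate samples.

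Heifer numbers in the sample titles pair libraries of an animal. The check found correlated deviations in 15 of 15 endometrial pairs (median r 0.35) and 9 of 9 conceptus pairs (median r 0.50), so the fits with animal as replicate block are given where they change a sign or a call; the ISG15 LogFC was 7.30 with uterus as replicate block. Text names all 6 members, called genes of each pathway list (up to 4), those grouped by role, and the 3 most similar genes per member and tissue. The members and lists were chosen with earlier results of these data known. RefSeq (ARS-UCD2.0) served for gene neighbours only. A few genes that these rules select are not reported here.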

Additional observations from a re-analysis of the deposited data

Results flagged for a closer look

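UBA7 in Endo-IVD Conc conceptus had a highest library, conceptus 66 on uterus 38, that lay far from the other 8 at 1.398 CPM; of 12 groups looked at in this way, chance alone picks about 1 in 20. The LogFC in endometrium minus that in conceptus tissue differed from 0 in the tissue by culture interaction of edgeR for each gene: 8.46 for ISG15, 6.16 for UBA7, 4.94 for USP18, 4.81 for HERC6, 4.55 for HERC5 and 1.59 for UBE2L6.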

How the results depend on the processing

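In endometrium all 6 genes kept their direction and call under the 15 alternatives, and the paired fit with uterus as replicate block gave LogFC from 2.61 for UBE2L6 to 7.30 for ISG15. In conceptus tissue the count of genes called higher went from 0 to 1 with DESeq2 (USP18) and to 2 with 2 factors of unwanted variation (USP18 and UBE2L6), and stayed at 0 in the other alternatives. With conceptus as replicate block, HERC5 turned from -0.16 to 0.88 and HERC6 from 0.05 to -0.28, both without a call. The count of genes whose response differed between tissues was 5 to 6 when culture sets were left out in turn; UBE2L6 was the gene lost. The number of correlated pairs in Endo went from 3 to 1 over culture set means, chosen after seeing the data, and that in Endo-IVD Conc conceptus from 0 to 1 (HERC5 and HERC6) with every library as its own point. The cause was not tested. Over all genes, calls in endometrium numbered 819 higher and 353 lower, against 1357 and 1337 with 2 factors of unwanted variation; DESeq2 gave 972 and 578 and the uterus as block 1100 and 633. In conceptus tissue 530 and 538 became 2171 and 1877 with these factors, 1171 and 1007 with DESeq2, 334 and 319 with conceptus as block, 1125 and 1060 with its co-cultures summed, and 116 and 132 with culture set as block. Low read numbers limit ISG15, UBA7 and UBE2L6 in conceptus tissue.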
